A study of Mus musculus with 6 samples.

Results

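Transcription factor genes that carry the circadian clock's rhythm to its targets were measured in mouse epididymal white adipose tissue (eWAT), the fat pad along the epididymis. The 8 genes are the PAR-bZIP genes Dbp, Tef and Hlf, the related bZIP gene Nfil3, the clock repressor genes Ciart, Bhlhe40 and Bhlhe41, and the nuclear receptor gene Rora. The genes were chosen by name, not by their values, though with earlier results of these data known. They are 8 of 54356 genes in the files and 8 of 17852 genes with enough counts to test. The 6 libraries hold poly(A) RNA of male wild type C57BL/6N mice aged 20 weeks, with 3 cold mice (cold 7, cold 12 and cold 16) and 3 controls (ctrl 5, ctrl 6 and ctrl 10), where the number is the mouse identifier. Cold mice were housed singly at 4 °C over 24 h, and the housing text gives 22 to 24 °C with a 12 h light cycle for mice in general. The same treatment text stands on the control samples, so whether controls were housed singly is unknown here, as is the hour of the light cycle at which any tissue was taken. A difference in hour between the groups cannot be told apart from cold.

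In the clock loop, CLOCK (or NPAS2) with BMAL1, the protein of Arntl, binds E-box sequences and switches on genes whose products then shut it off. DBP, TEF and HLF are activators that bind D-box sequences, and NFIL3 (E4BP4) binds the same sequences as a repressor, so the balance between them sets the rhythm of D-box genes. CIART (CHRONO) and the DEC factors BHLHE40 (DEC1) and BHLHE41 (DEC2) repress at E-boxes, whereas RORα activates Arntl through ROR elements in competition with the REV-ERB receptors encoded by Nr1d1 and Nr1d2. In fat these factors are known for rhythmic control of lipid handling and adipocyte differentiation.

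The motifs of this loop were looked for in RefSeq promoter windows of GRCm38.p6, running from 250 bases before to 50 bases after a gene's start. Windows were held for 7 of the 8 genes, all but Bhlhe40, and Tef has 2, giving 8 windows. The letters searched on both strands were CACGTG for the E-box (its own reverse complement), TTATGTAA or TTACGTAA for the D-box, TAGGTCA or TGGGTCA for the ROR element and TGACGTCA for the cAMP response element (CRE). An E-box stood in 4 of the 8 windows, both of Tef and those of Ciart and Bhlhe41. Over all promoters 7.15% of 32851 windows of the same length held 1 or more. The 250 bases before the start were 60.4 to 81.6% G or C in the 8 windows, against a median of 52.4% over all promoters. All promoters are thus an unlike background for these shares, and enrichment was not tested. Ciart held 3 E-boxes within 100 bases. Hlf held a CRE (1.79% of all windows) and Nfil3 a ROR element (6.45% of all windows), and none of the 8 held a D-box (1.06% of all windows). The matches did not overlap one another. These are matches of letters, and binding was not measured. Bases outside the windows, introns among them, were not searched. The lack of an E-box in the Dbp window thus does not show that the gene has none. The stretches that hold the matches are given 5′ to 3′ on the gene's strand, with the motif in capitals. The upstream window of Per3, a clock gene outside the group, is added because its pair of D-boxes shows the sequence that DBP, TEF, HLF and NFIL3 bind.

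Ciart, chr3:95882259-95882358, minus strand: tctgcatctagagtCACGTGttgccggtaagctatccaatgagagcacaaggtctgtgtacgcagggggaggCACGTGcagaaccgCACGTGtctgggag
Tef, first start, chr15:81802534-81802563, plus strand: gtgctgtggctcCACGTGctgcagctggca
Tef, second start, chr15:81811264-81811293, plus strand: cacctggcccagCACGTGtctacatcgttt
Bhlhe41, chr6:145865556-145865585, minus strand: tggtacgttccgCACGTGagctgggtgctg
Hlf, chr11:90390918-90390947, minus strand: atcggcgcgcggtgcgggcccTGACGTCAc
Nfil3, chr13:52981040-52981069, minus strand: tagcgcggcgctcggaacTGACCTActaac
Per3, chr4:151044811-151044875, minus strand: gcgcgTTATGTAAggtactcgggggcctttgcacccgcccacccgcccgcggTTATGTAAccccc

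Library depth was 19735167 to 28608052 estimated counts. The p-values of the gene tests set the difference between groups against the spread between 3 mice a group, estimated with information shared over all genes tested. Adipocyte markers were abundant in every library (10 genes, 28470 to 32730 CPM summed in controls and 32000 to 33080 in the cold; CPM stands for counts scaled to a common library size). Of these 10 genes 3 had positive and 7 negative values, and 1 was called, the leptin gene Lep, which rose (log2 fold change 0.61, adjusted p = 0.0439 by edgeR). The lipid carrier gene Fabp4 made up the largest part of the sum, at 10690 to 12570 CPM in controls and 14020 to 16390 CPM in the cold. The epithelial list summed to 16.3 to 51.4 CPM in controls and 148.5 to 227.6 CPM in the cold, with all 11 tested of its 12 genes higher and 6 called. All 18 motile cilium genes were higher, 5 of them called, at 11.2 to 44.2 against 89.9 to 265.3 CPM. All 5 endothelial markers (1210 to 1265 against 970.4 to 1169 CPM) and all 7 lymphoid markers (17.0 to 23.0 against 12.6 to 17.7 CPM) were lower, none called. In a bulk sample, fewer cells of a type and less RNA per cell cannot be told apart. Apart from a fit with a motile cilium covariate, given below, the part of these cell types in the values was not tested.

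The first comparison asked whether the 8 genes differ between cold and control fat. None of the 8 passed over all genes by edgeR's quasi-likelihood test at an adjusted p under 0.05, against 2.89% of the 17852 genes tested (2.32% higher and 0.566% lower in the cold). Dbp and Nfil3 lay at an unadjusted p under 0.05, which is 2 of 8 genes against 17.6% of all genes. By DESeq2 1 gene passed, Dbp, against 6.51% of the 21979 genes that DESeq2 gave an adjusted p. The fitted log2 fold changes ran from -0.44 (Ciart) to 0.52 (Nfil3), 3 positive and 5 negative, with a median of -0.06 against -0.01 for all genes tested. In 2 of the 8 the groups did not overlap in CPM (Dbp and Rora), against 23.8% of all genes.

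Dbp (chromosome 7, 45705088 to 45710203, GRCm38) encodes a D-box activator known for a wide daily swing. It stood at 337.8, 279.5 and 301.9 CPM in ctrl 5, ctrl 6 and ctrl 10 and at 240.5, 229.0 and 263.8 CPM in cold 7, cold 12 and cold 16. Every cold library lay below every control, though the highest cold and the lowest control were close. The means were 306.4 ± 29.4 and 244.4 ± 17.7 CPM (SD, n = 3 each), and the fitted log2 fold change was -0.33 (SE 0.09, 95% interval -0.54 to -0.11, unadjusted for the number of genes). Its adjusted p was 0.111 by edgeR and 0.0257 by DESeq2.

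Tef (chromosome 15, 81802421 to 81826863), the thyrotroph embryonic factor gene, stood at 411.1, 379.1 and 323.5 CPM in the controls and at 324.1, 357.7 and 346.8 CPM in the cold, in the same library order. The cold libraries lay inside the control range, and the log2 fold change was -0.11 (95% interval -0.35 to 0.12, adjusted p = 0.635). Hlf (chromosome 11, 90336536 to 90390895), the hepatic leukemia factor gene, stood at 41.7, 32.7 and 28.0 CPM in the controls and at 38.8, 36.0 and 37.6 CPM in the cold. The 3 cold libraries were close together and again inside the control range. Its log2 fold change was 0.13 (95% interval -0.18 to 0.45, adjusted p = 0.697). The fitted values of Dbp and Tef were thus negative and that of Hlf positive, but the intervals of Tef and Hlf span 0. With the mean level of the motile cilium list as a covariate all 3 were negative (-0.53, -0.49 and -0.34, SE 0.20, 0.18 and 0.23). The groups account for 78.8% of the variance in that covariate, so it can hardly be told apart from cold. With ctrl 5 and cold 7 left out Tef stood at 0.010. Hlf stood at 0.31 without ctrl 5 and at 0.014 without ctrl 10.

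Nfil3 (chromosome 13, 52967209 to 52981073), the D-box repressor, had the largest positive value of the 8. It stood at 7.64, 5.01 and 4.93 CPM in ctrl 5, ctrl 6 and ctrl 10 and at 7.18, 8.10 and 9.92 CPM in cold 7, cold 12 and cold 16. Only ctrl 5 and cold 7 overlapped. The means were 5.86 ± 1.54 and 8.40 ± 1.39 CPM (SD, n = 3 each). The log2 fold change was 0.52 (SE 0.22, 95% interval 0.02 to 1.01, adjusted p = 0.261 by edgeR). With ctrl 5 and cold 7 both left out the value was 0.87 and the adjusted p 0.0421 by edgeR. These are the 2 libraries that overlapped, so leaving them out parts the groups and enlarges the difference by construction. In that setting 1230 of 18154 genes passed. With the motile cilium covariate the value was -0.31 (SE 0.35), so its sign there is uncertain. Counts behind these levels were 96 to 185 in controls and 164 to 284 in the cold, the lowest of the 8 genes in every library.

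**Figure D1:**
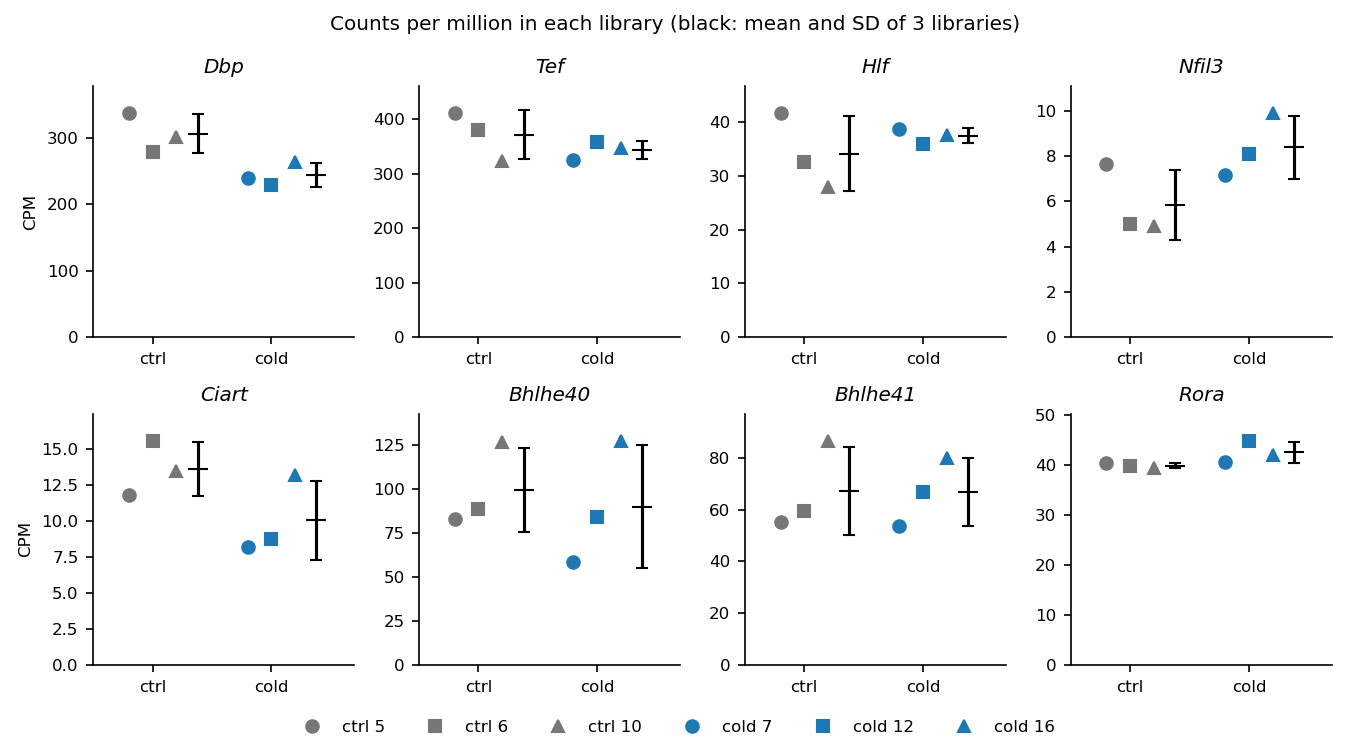
CPM (y axis, from 0) of the 8 genes in each of the 3 ctrl and 3 cold libraries; the black bar gives the mean and SD of 3 libraries. The cold libraries lie below all controls in Dbp and above all controls in Rora, and in the other 6 genes the groups overlap.

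The repressors that act at E-boxes came next. Ciart (chromosome 3, 95878503 to 95882251) stood at 11.8, 15.6 and 13.5 CPM in ctrl 5, ctrl 6 and ctrl 10 and at 8.18, 8.73 and 13.2 CPM in cold 7, cold 12 and cold 16. Cold 7 and cold 12 lay below all controls, and cold 16 lay among them. The log2 fold change was -0.44 (SE 0.20, 95% interval -0.90 to 0.02, adjusted p = 0.315), and it was -0.69 without cold 16 (adjusted p = 0.0955).

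Bhlhe40 (chromosome 6, 108660629 to 108666925), a DEC factor gene that also answers to hypoxia and hormones, stood at 82.8, 88.8 and 126.6 CPM in ctrl 5, ctrl 6 and ctrl 10 and at 58.2, 83.8 and 127.4 CPM in cold 7, cold 12 and cold 16. Its log2 fold change of -0.14 had a 95% interval from -0.94 to 0.65, the widest of the 8. Its paralog Bhlhe41 (chromosome 6, 145858243 to 145865558) stood at 55.2, 59.5 and 86.6 CPM in the controls and at 53.5, 66.9 and 79.9 CPM in the cold. Its log2 fold change was -0.004 (95% interval -0.52 to 0.51). For both, the interval leaves room for a change of either sign, so these values do not show that the DEC genes were equal in the groups. Bhlhe40 and Bhlhe41 had the same lowest and highest libraries, ctrl 5 and ctrl 10 among controls and cold 7 and cold 16 in the cold. Over the 6 libraries their log2 CPM had Pearson's r = 0.91 (exact permutation p = 0.0111) and Spearman's rho = 0.89 (exact permutation p = 0.0333), and r = 0.91 without the 2 libraries farthest from the Bhlhe40 median. None of the 28 pairs among the 8 genes passed after adjustment (smallest adjusted p = 0.311 for r, two-sided exact permutation), and 3 libraries a group are too few for a value within groups.

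Rora (chromosome 9, 68653786 to 69388246), which spans 734461 bases, stood at 40.4, 39.6 and 39.3 CPM in the controls and at 40.5, 44.8 and 42.0 CPM in the cold. The groups did not overlap in CPM, though ctrl 5 and cold 7 were nearly level. Scaled for length as well (TPM, explained below) they did overlap, at 7.44 to 9.04 in controls and 7.70 to 9.54 in the cold. Its log2 fold change was 0.09 (SE 0.07, 95% interval -0.07 to 0.26, adjusted p = 0.579). In Tef, Nfil3 and Rora, ctrl 5 topped the controls and cold 7 had the lowest cold value, 3 of 8 genes against 14.8% of all genes. The summed motile cilium genes had the same order, with 44.2 CPM in ctrl 5 and 89.9 CPM in cold 7. With the motile cilium covariate the fitted values were -0.49 for Tef, -0.31 for Nfil3 and -0.02 for Rora. That covariate largely follows the groups, so the part of the cilium genes cannot be told apart from cold.

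Spread within groups differed between the 8 genes. The coefficient of variation over the 3 controls was 1.41% for Rora, 9.60% for Dbp, 11.9% for Tef and 13.8% for Ciart. It was 20.5% for Hlf, 23.9% for Bhlhe40, 25.4% for Bhlhe41 and 26.3% for Nfil3. In the cold it ran from 3.69% for Hlf to 39.0% for Bhlhe40. Among tested genes averaging 5 CPM or more the median was 7.58% in controls and 8.10% in the cold. These values include counting noise, which weighs more at low counts. Nfil3 had 96 to 185 counts in controls, against 5880 to 8182 for Dbp. A value from 3 libraries is itself uncertain, the low one of Rora included. Whether spread differed between genes or between groups was not tested.

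Levels were then ordered per length, in TPM (a share of all transcripts after scaling for length), without a test between genes. In controls the order was Dbp (240.8 ± 28.4 TPM), Tef (155.5 ± 20.9), Bhlhe40 (50.3 ± 12.1), Ciart (18.7 ± 3.44), Bhlhe41 (16.3 ± 4.43), Hlf (9.56 ± 2.17), Rora (8.13 ± 0.826) and Nfil3 (3.96 ± 1.14; SD, n = 3 each). The control libraries of neighbours in this order did not overlap except for Ciart with Bhlhe41 and Hlf with Rora. In the cold the order was Dbp (193.9 ± 14.0 TPM), Tef (134.3 ± 11.1), Bhlhe40 (43.8 ± 14.5), Bhlhe41 (16.0 ± 2.68), Ciart (13.5 ± 3.83), Hlf (10.5 ± 1.73), Rora (8.57 ± 0.923) and Nfil3 (5.52 ± 0.795; SD, n = 3 each). There, Bhlhe41 with Ciart, Ciart with Hlf and Hlf with Rora overlapped. The D-box activator Dbp thus stood at 51.2, 64.4 and 72.4 times the TPM level of the D-box repressor Nfil3 in ctrl 5, ctrl 6 and ctrl 10 and at 39.65, 33.6 and 33.0 times in cold 7, cold 12 and cold 16. For Tef these ratios to Nfil3 were 33.2, 47.6 and 40.5 in controls and 27.5, 27.0 and 19.6 in the cold. Both ratios were lower in every cold library than in every control, and for Hlf (2.27 to 2.69 against 1.46 to 2.62) the groups overlapped. These ratios were chosen after the values were seen and carry no test.

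**Figure D2:**
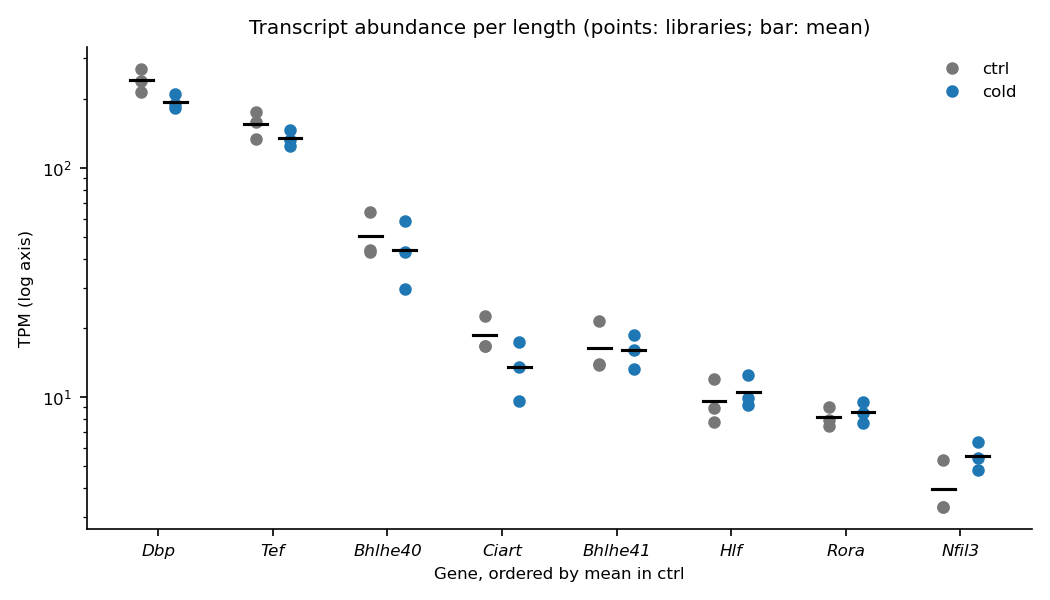
TPM on a log axis for the 8 genes in each library, ordered by the control mean; points are libraries and bars are means of 3. Dbp and Tef lie at 124.8 TPM or more in all 6 libraries and Nfil3 at 6.36 TPM or less.

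Transcripts of the 8 genes were compared next, 41 in the files and 21 with enough counts to test. None was called by edgeR or by DESeq2. Over all transcripts edgeR called 0% of the 42984 it tested, and DESeq2 called 1182 of the 95740 it fitted. Of the 21, 3 lay at an unadjusted p under 0.05 by edgeR, against 8.15% of all transcripts tested. Dbp-201, with 4 exons, held 79.9% of Dbp's counts (78.2 to 83.0% by library), and Dbp-205, annotated as a retained intron, held 12.2% (9.79 to 15.4%). Both had negative values, with log2 fold changes of -0.34 and -0.39 (adjusted p = 0.481 and 0.603).

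Tef had 2 main forms with separate starts, each with an E-box in the window printed above. Tef-202, from the first start at 81802421, held 58.6, 58.0 and 52.4% of Tef's counts in ctrl 5, ctrl 6 and ctrl 10 and 60.7, 56.2 and 67.3% in cold 7, cold 12 and cold 16. Tef-201, from the second start at 81811414, held 38.5, 39.1 and 44.0% in the controls and 36.7, 41.3 and 31.0% in the cold. The groups overlapped in both. The printed stretch before the first RefSeq start overlaps an annotated Tef exon in GENCODE, which places the gene's start further upstream. The same holds for the Nfil3 stretch, which lies inside the annotated gene with its ROR element, and the Bhlhe41 stretch overlaps an annotated Bhlhe41 exon at its edge.

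Ciart was divided between Ciart-201 (50.7% over all libraries) and Ciart-202 (33.7%), and the division varied more between libraries than in Dbp or Tef. It rested on few estimated counts, 66 to 253 for Ciart-201 and 66 to 130 for Ciart-202, against 4381 to 6789 for Dbp-201. How surely reads were assigned to each transcript was not measured. Ciart-201 held 60.1, 40.5 and 41.6% of Ciart's counts in ctrl 5, ctrl 6 and ctrl 10 and 35.3, 50.9 and 66.8% in cold 7, cold 12 and cold 16. The other 5 genes had 1 main form each: Hlf-201 (94.2%), Nfil3-201 (the 1 transcript listed), Bhlhe40-201 (96.4%), Bhlhe41-201 (99.7%) and Rora-201 (92.0%). Of 6 genes that could be tested for transcript usage none passed by the Simes test of edgeR's diffSpliceDGE, against 0.984% of 9654 genes called, and none lay at an unadjusted p under 0.05, against 2.79%. The Simes test's smallest unadjusted p was 0.524, for Dbp.

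**Figure D3:**
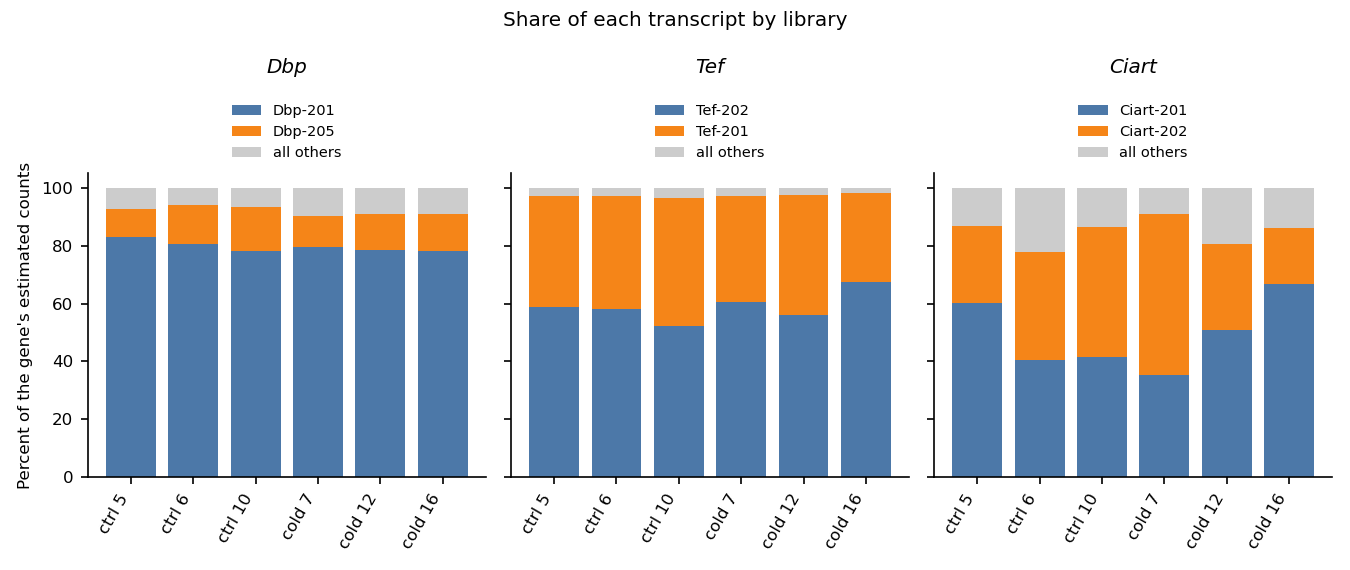
Percent of each gene's estimated counts held by its transcripts with at least 10% of the gene, for Dbp, Tef and Ciart in each library. Dbp-201 holds 78.2 to 83.0% throughout, whereas Ciart-201 ranges from 35.3% in cold 7 to 66.8% in cold 16.

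Several of the 8 genes share exonic bases with a gene on the other strand, and the sources used here do not say whether the counting used strand. Dbp shares 539 exonic bases with Sphk2, which had 557 to 1052 counts against 5496 to 8182 for Dbp, and whose log2 fold change had the opposite sign (0.25, adjusted p = 0.145). Bhlhe41 shares 1280 with Gm43909 (46 to 84 counts). For Tef, Bhlhe40 and Rora the shared bases were 193, 118 and 82, with at most 40 counts in the other gene.

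The core clock genes that drive the 8, and other genes under clock control, were read from the same fit. None of 15 core clock genes was called by edgeR (6 at an unadjusted p under 0.05), and 1, Npas2, was by DESeq2. Over all genes edgeR called 2.89%, with 17.6% at an unadjusted p under 0.05, and DESeq2 called 6.51%. In 6 of the 15 core clock genes the groups did not overlap in CPM, against 23.8% of all genes. The median log2 fold change of the 15 was -0.07, with 6 positive and 9 negative. Npas2, the partner that can stand in for CLOCK, stood at 1.85 (SE 0.45, adjusted p = 0.0699), Arntl at 0.91 (SE 0.27, adjusted p = 0.113), the REV-ERBβ gene Nr1d2 at -0.28 (adjusted p = 0.0984) and the cryptochrome gene Cry2 at -0.26 (adjusted p = 0.127). Arntl levels were 2.23, 1.97 and 2.21 CPM in ctrl 5, ctrl 6 and ctrl 10 and 2.93, 5.39 and 3.70 CPM in cold 7, cold 12 and cold 16, without overlap. Npas2 levels were 0.454, 0.402 and 0.873 CPM against 1.09, 2.71 and 2.37 CPM in the same order, also without overlap, but per length ctrl 10 (1.10 TPM) lay among the cold libraries (0.537 to 1.35 TPM). The 6 genes of the loop at an unadjusted p under 0.05 were Npas2, Arntl and Clock with positive values and Nr1d2, Cry2 and Per3 with negative ones. Per3, whose window holds the D-boxes printed above, stood at -0.32 (adjusted p = 0.234). Without cold 7, Npas2, Arntl and Nr1d2 passed (adjusted p = 0.0185, 0.0421 and 0.0486 by edgeR), and without both ctrl 5 and cold 7 Npas2 did (adjusted p = 0.0308). In each of these genes cold 7 was the cold library nearest the controls, so leaving it out enlarges the difference by construction. Over all genes 1090 of 18451 passed without cold 7, and 1230 of 18154 without both libraries.

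Of 14 tested genes among 15 other clock-controlled genes, Cdkn1a alone was called, against 2.89% of all genes, and it rose. Cdkn1a, a cell cycle inhibitor gene, went from 15.4 ± 3.86 to 32.0 ± 4.24 CPM (SD, n = 3 each; log2 fold change 1.06, adjusted p = 0.0369 by edgeR). It missed the threshold without ctrl 6, ctrl 10, cold 12 or cold 16, settings in which 0 to 3 genes passed in all, and with the motile cilium covariate, with which none did. Pdxk, the pyridoxal kinase gene known as a PAR-bZIP target, stood at 0.61 (adjusted p = 0.0965, and 0.0028 by DESeq2), with 85.9 to 117.3 CPM in controls and 125.2 to 178.4 CPM in the cold. The tetraspanin gene Tspan4 was at -0.29 and the ubiquitin protease gene Usp2 at 0.79 (adjusted p = 0.228 and 0.378). The list's median was 0.05, with 7 positive and 7 negative. Of 8 genes related to the group by protein family none was called by edgeR or DESeq2. By edgeR 1 of them lay at an unadjusted p under 0.05, against 17.6% of all genes, and their median was 0.13. The lowest p among them were those of Cebpb (0.32, adjusted p = 0.210), Esrra (0.16), Id2 (0.19) and Nr1h3 (0.11).

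**Figure D4:**
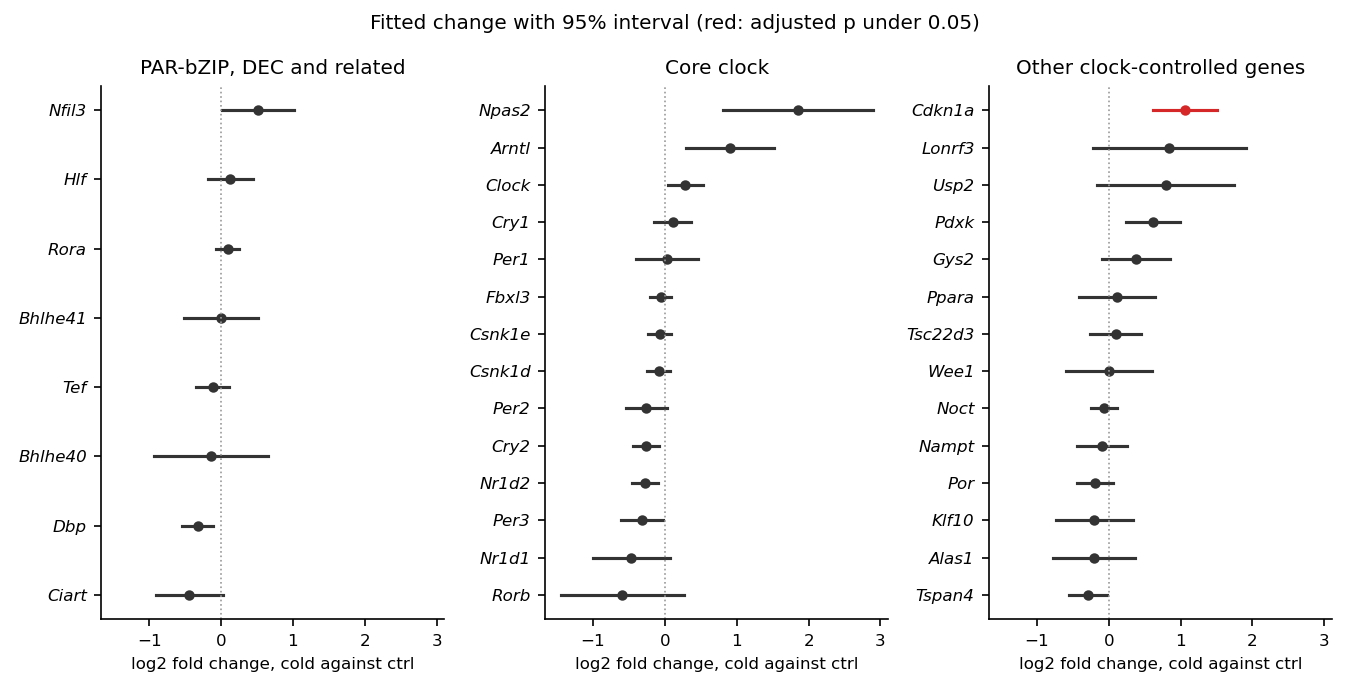
Fitted log2 fold change, cold against ctrl, with its 95% interval for the 8 genes, 14 of the 15 core clock genes tested (1 is not shown) and 14 other clock-controlled genes; red marks an adjusted p under 0.05. Cdkn1a is the 1 gene in red, and the intervals of Dbp and Nfil3 lie to opposite sides of 0.

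For each of the 8 genes the 3 genes with the most similar log2 CPM over the 6 libraries were listed, out of 11110 candidates. With 6 points that share depth and scaling, high values are easy to reach, so the list is a description. Dbp was most like Sirt5, Sh3tc2 and Tnfsfm13 (Pearson's r 0.987 to 0.990) and Tef most like Jdp2, Fdxr and Prkch (0.981 to 0.995). Hlf was most like Tsc22d3, Hes6 and Klhl33 (0.964 to 0.978), and Nfil3 most like Pik3ip1, Pigh and Tmem252 (0.97 to 0.986). Ciart was most like Castor1, Slc35b2 and Kctd17 (0.980 to 0.988). Bhlhe40 was most like Fam45a, Gata2 and Parp3 (0.989 to 0.993), and Bhlhe41 most like Morc4, Ap1m1 and Tmem186 (0.978 to 0.989). Rora was most like Car13, Cyp4b1 and Sytl4 (0.991 to 0.994). None of these 24 genes was called, and Tsc22d3 is itself on the list of clock-controlled genes.

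**Figure D5:**
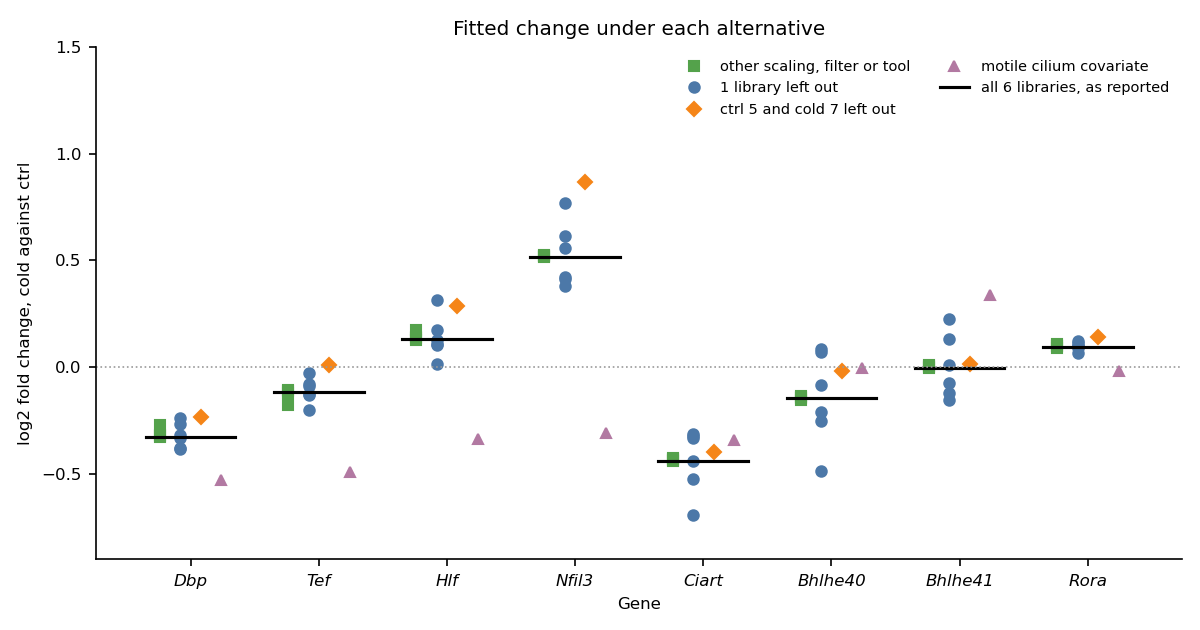
Fitted log2 fold change of the 8 genes, cold against ctrl, with all 6 libraries (black line) and under each of 12 alternatives, by kind. Dbp and Ciart stay below 0 in all 12, whereas Bhlhe41 takes both signs.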

How the data were processed

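The authors deposited 1 Salmon table per library; bcl2fastq, cutadapt, Salmon and the build GRCm38 are named per the submitters' processing notes, without versions or settings in the sources used here. The deposited values are estimated counts, which need not be whole, and TPM per transcript, per the file headers. Libraries were strand-specific and paired-end with 50 nt reads, per the labels' protocols. Of 140658 transcripts 140137 matched GENCODE M21 (GRCm38), whose coordinates are printed; the rest (0.124 to 0.394% of counts) name no gene and were left out.

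Estimated counts were summed per gene, rounded and tested in R 4.3.3 with edgeR 4.0.16 (filterByExpr with a minimum count of 10, TMM, robust glmQLFit, glmQLFTest, two-sided, Benjamini-Hochberg over all genes). SE came from the F statistic. TPM was used for levels only. DESeq2 1.42.0, RLE factors, no filter, a transcript length offset, left-out libraries and a motile cilium covariate were alternatives. No 2 libraries of a group were alike within counting noise (chi-square over its degrees of freedom 11.5 or more). Code was tested on simulated data. An exact permutation test of 3 against 3 cannot go below p = 0.10.

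The 8 genes and all lists were chosen with earlier results of these data known. Named were the 8 genes, per clock or relatives list the called genes and up to 4 with the smallest p, transcripts with at least 10 percent of a gene, and 3 genes per member by similarity at a mean of at least 5 CPM; Clock, Per3 and the ratios were named after their values were seen. Preadipocyte, macrophage, mesothelial and brown adipocyte lists held no call (medians 0.12, -0.21, -0.49 and, for the 1 brown adipocyte gene of 3 with enough counts, 0.16). Single values of some listed genes, 1 of them in the core clock list, are not reported or plotted here.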

Additional observations from a re-analysis of the deposited data

How the results depend on the processing

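No paired analysis was possible because the mouse numbers of the 2 groups differ. Over all genes 516 were called; the count was 924 with no low-count filter, 1430 by DESeq2, 1230 with ctrl 5 and cold 7 both left out and 0 with the motile cilium covariate (890 at an unadjusted p under 0.05), and 0 to 1090 with 1 library left out (0 without ctrl 6, ctrl 10 or cold 12). Of the 8 genes 1 was called by DESeq2 (Dbp) and 1 with ctrl 5 and cold 7 both left out (Nfil3, 0.87), and 0 under the other 10 alternatives. Core clock calls, 0 as reported, were 1 with no filter and 1 by DESeq2 (Npas2 both times), 2 with ctrl 5 and cold 7 left out, and 0 to 3 with 1 library left out. Other clock-controlled calls, 1 as reported, were 2 by DESeq2, 2 with ctrl 5 and cold 7 left out (Pdxk and Cdkn1a both times), 0 with the covariate, and 0 to 2 with 1 library left out. Calls among relatives were 1 with ctrl 5 and cold 7 left out (Cebpb) and 0 to 1 with 1 library left out. No transcript or usage call appeared for the 8 genes under any alternative run. For transcripts, each edgeR fit with the filter called 0 over all genes, and the fit without it called 8 of 95740. The lack of a transcript call in those fits thus says nothing particular to the 8 genes.

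Dbp and Ciart kept a negative sign in all 12 alternatives (-0.53 to -0.23 and -0.69 to -0.31), with Dbp's adjusted p from 0.0257 to 0.983. Under the covariate Hlf (-0.34, SE 0.23), Nfil3 (-0.31, SE 0.35), Rora (-0.020, SE 0.17) and Bhlhe41 (0.34, SE 0.51) changed sign. The groups account for 78.8% of the variance in that covariate. Tef changed sign with ctrl 5 and cold 7 left out (0.010), stood at -0.49 under the covariate and ranged from -0.20 to -0.026 with 1 library left out. Hlf ranged from 0.014 without ctrl 10 to 0.31 without ctrl 5. Bhlhe40 did so without ctrl 10 (0.07) or cold 7 (0.086), in a range from -0.486 to 0.086 with 1 library left out. Bhlhe41 also did so with RLE factors (0.0031), the length offset (0.0078), without ctrl 10 (0.23), cold 7 (0.13) or cold 12 (0.009) in a range from -0.156 to 0.23, and with ctrl 5 and cold 7 left out (0.016). The cause of these shifts was not tested.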

Other observations

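The activating and the output side of the clock were set side by side per length, with a ratio chosen after the values were seen and given without a test. Dbp, a gene that BMAL1 switches on, stood at 238.3, 221.8 and 204.1 times the TPM of Arntl, the gene of BMAL1, in ctrl 5, ctrl 6 and ctrl 10. In cold 7, cold 12 and cold 16 the ratio was 130.7, 68.1 and 114.3, lower in each than in every control. The groups were already apart in TPM for Dbp and for Arntl, in opposite directions. That the ratio is apart follows from this and adds no further evidence. Arntl itself was scarce, at 0.961 to 1.17 TPM in controls and 1.45 to 2.69 TPM in the cold. The 3 PAR-bZIP genes summed to 457.3, 379.7 and 380.4 TPM in controls and to 333.3, 339.1 and 343.6 TPM in the cold, and the 2 DEC genes to 56.6, 57.7 and 85.8 TPM against 43.0, 59.0 and 77.4 TPM. The groups were apart in the first sum and overlapped in the second. Within the first sum only Dbp was apart by itself (213.2 to 270.0 TPM in controls, 182.8 to 209.5 TPM in the cold). For Tef and Hlf the groups overlapped.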
